A study of Mus musculus with 38 samples.

Results

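The stress effect pooled over all mice compares 20 libraries of mice exposed to chronic variable stress (CVS) with 18 libraries of unstressed mice (NS), which are all 38 libraries of the series. Libraries were assigned by their labels. The difference CVS minus NS was taken within each of 4 strata (male control, male mutant, female control, female mutant) and averaged with a weight of 0.25 per stratum, so that no level was compared across sex or genotype. It asks which cortical transcripts differ after stress on average over sex and genotype, and an average can be carried by some of the strata.

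The tissue was medial prefrontal cortex (mPFC), profiled by bulk RNA sequencing with 1 library per mouse. All mice, controls included, carried Cre recombinase driven by the somatostatin promoter (SSTCre), and the mutants carried in addition an f/f allele on which this Cre acts. The male controls were 5 unstressed and 6 stressed mice, and the male mutants 3 unstressed and 4 stressed mice. Every female group had 5 mice. CVS lasted 21 days, and the tissue was taken 24 hours after the last stressor. Neither the age of the mice nor the hour of day of dissection is stated in the labels. Male and female names come from 2 series of labels, so that sex and cohort cannot be told apart. The promoter of the driver restricts the mutation to somatostatin interneurons, a minority of the dissected cells, and the dissection averages over every cell type of the block.

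Chronic variable stress exposes rodents to a changing sequence of unpredictable stressors and is used as a model of depression-related states. Stressors activate the hypothalamic-pituitary-adrenal (HPA) axis, and the glucocorticoids it releases act on the prefrontal cortex through nuclear receptors that induce genes such as Fkbp5, Sgk1 and Tsc22d3. Glucocorticoids also set the phase of the circadian clock in peripheral tissues and many brain regions, where the activators Clock and Arntl drive their repressors and output factors such as Dbp through E-box sequences.

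Total counts ranged from 17.6 M to 27.5 M per library. Xist and Ddx3y matched the sex label of every library. Slc17a7, the vesicular glutamate transporter of cortical excitatory neurons, stood between 1719 and 2092 CPM (counts per 1000000 counts, scaled with TMM factors) in all 38 libraries. The summed level of 8 olfactory bulb markers ranged from 44.7 to 75.9 CPM, and 1 of them, Cdhr1, stood at 16.01 CPM in male control CVS replicate 1 and at 25.02 and 26.6 CPM in male mutant NS replicates 2 and 3, against 1.74 to 5.35 CPM elsewhere. Male mutant CVS replicate 1 carried mixed genotype marks: the predicted gene Gm12663 was at 0 CPM there, against 1.12 to 2.84 CPM in the other male mutants, while its 91.6 CPM of Ccng1 lay above all 11 male controls (70.9 to 80.0 CPM). The share of counts taken by the most abundant gene ID of the table, ENSMUSG00000119584, which has no symbol in the gene table, was higher after stress by 0.682 percentage points averaged over the strata (permutation test within strata with 100000 resamples, two-sided, p = 0.00152, adjusted over 4 library measures 0.00608). That difference was 1.24 points in female controls, 1.43 in female mutants, 0.0606 in male controls and 0.0048 in male mutants. The ID took 0.0451% to 0.406% of counts in male and 4.21% to 7.83% in female libraries, so the average in points rests mainly on the females. The mitochondrial share was 5.13% to 6.66% in male and 3.26% to 4.08% in female libraries. Total count, mitochondrial share and haemoglobin share had adjusted p-values of 0.792.

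Few transcripts passed the threshold when all mice were pooled. Dbp, a circadian output transcription factor, rose by 27.2%. Colq, the collagen-like tail that anchors acetylcholinesterase, fell by 39.1%, and Htra1, a secreted serine protease, fell by 9.27%. These 3 genes were 0.0170% of the 17671 tested, with 1 higher (0.00566%) and 2 lower (0.0113%), at an adjusted p under 0.05 in edgeR's quasi-likelihood test (Benjamini-Hochberg adjusted). At an unadjusted p under 0.05 there were 1655 genes (9.37%), of which 877 (4.96%) were higher and 778 (4.40%) lower. The median log2 fold change of all genes was 0.0028, with 51.9% of genes positive and 48.1% negative. Scaled by library totals alone, 20 genes passed, 1 higher and 19 lower, so the split between directions depended on the scaling. DESeq2 called 35 genes (0.198%), among them Dbp and Htra1. The 3 genes called by limma voom (0.0170%) were Dbp (adjusted p 0.00211), Dio2 (0.0366) and Lox (0.0437), while Colq and Htra1 had 0.0528.

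Dbp stood at 63.6, 89.3, 57.9, 97.7 and 70.3 CPM in male control NS mice, and in the 6 male control CVS mice its lowest, median and highest levels were 84.1, 109 and 119.7 CPM. Male mutants had 61.0, 79.3 and 72.8 CPM without stress and 92.9, 99.8, 108 and 98.3 CPM after it. The ranges were separate in male mutants and overlapped in male controls. Here and below, most genes whose ranges are compared were chosen by small p-values from these same libraries. That choice favours separate ranges and CVS libraries beyond the NS mean, so both are given as description. Their share over all genes is not given here. Female controls had 97.5, 109, 92.8, 104 and 101 CPM without stress and 116, 117, 107, 106 and 119 CPM after it. Female mutants had 116, 78.0, 88.1, 93.2 and 99.2 CPM without stress and 89.7, 112, 119, 131 and 106 CPM after it. In both female strata the ranges overlapped. Taking the 4 strata together, 19 of 20 CVS libraries lay above the NS mean of their stratum. Over all mice the level was 87.3 ± 17.1 CPM (SD, n = 18) in NS and 108 ± 11.5 CPM (SD, n = 20) in CVS. The pooled log2 fold change was 0.35 ± 0.0628 (standard error), with an adjusted p of 0.0406 in edgeR's quasi-likelihood test (Benjamini-Hochberg adjusted). The stratum values were 0.50 in male controls, 0.49 in male mutants, 0.17 in female controls and 0.23 in female mutants. Their difference between the cohorts, females minus males, was −0.30 ± 0.125 and did not pass (edgeR, Benjamini-Hochberg adjusted p 0.671).

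Colq was a low transcript, with 12 to 67 counts per library. Its levels were 2.39, 1.57, 2.72, 1.59 and 2.16 CPM in male control NS mice, against a lowest, median and highest level of 0.707, 1.23 and 1.55 CPM in the 6 male control CVS mice. Male mutants had 3.23, 1.47 and 1.36 CPM without and 1.54, 1.38, 1.51 and 0.813 CPM with stress. The male control ranges did not overlap, while the male mutant ranges did. Female controls had 1.49, 2.13, 2.16, 1.75 and 1.80 CPM without and 0.640, 1.49, 0.717, 1.45 and 1.10 CPM with stress. Female mutants had 1.54, 3.14, 1.98, 2.26 and 1.12 CPM without and 1.73, 0.958, 1.39, 0.8287 and 1.41 CPM with stress. The pooled levels were 1.99 ± 0.595 CPM (SD, n = 18) in NS and 1.20 ± 0.330 CPM (SD, n = 20) in CVS. All 20 CVS libraries lay below the NS mean of their stratum. The log2 fold change was −0.72 ± 0.139 (edgeR's quasi-likelihood test, Benjamini-Hochberg adjusted p 0.0406), and the strata gave −0.81, −0.62, −0.76 and −0.67 in the order male control, male mutant, female control and female mutant.

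Htra1, which cleaves extracellular matrix proteins, lay between 121 and 184 CPM (median 152) in NS mice and between 116 and 156 CPM (median 138) in CVS mice. The 5 male control NS mice had 141, 151, 125, 152 and 160.2 CPM, and the 6 male control CVS mice had a lowest, median and highest level of 125, 130.4 and 145 CPM. Male mutants had 130.2, 144 and 121 CPM without and 123, 116, 123 and 117 CPM with stress. Female controls had the highest NS levels, 164, 184, 153, 167 and 172 CPM, against 140.2, 156, 149, 148 and 132 CPM after stress. Female mutants had 141, 154, 148, 160.5 and 142 CPM without and 141, 142, 141, 139 and 146 CPM with stress. The ranges overlapped in all 4 strata, and all 20 CVS libraries lay below their stratum's NS mean. The log2 fold change was −0.14 ± 0.0278 (edgeR's quasi-likelihood test, Benjamini-Hochberg adjusted p 0.0406). Stratum values were −0.14 in male controls, −0.14 in male mutants, −0.21 in female controls and −0.071 in female mutants. Because the tissue was sequenced in bulk, fewer cells of a type and less RNA per cell cannot be told apart.

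**Figure D1:**
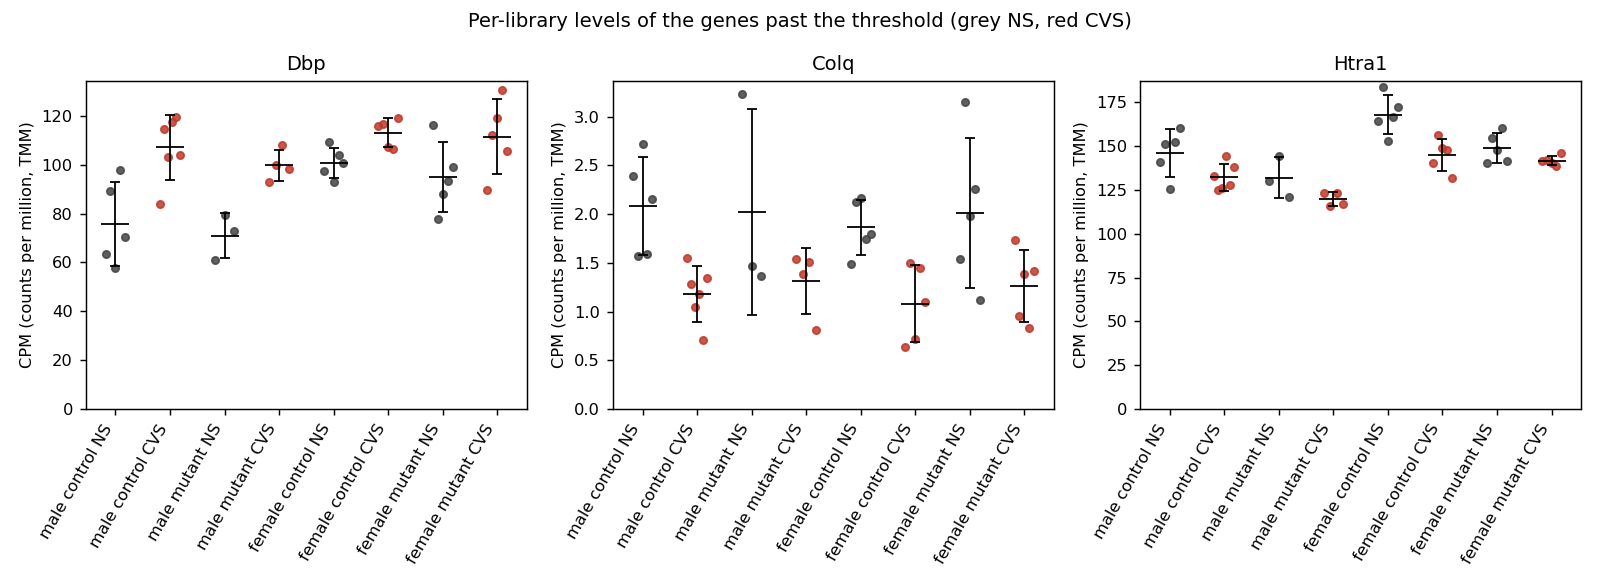
Levels of Dbp, Colq and Htra1 in each of the 38 libraries (y axis: CPM with TMM factors; x axis: the 8 groups; grey NS, red CVS; 1 point per library; bars show the mean and SD). Dbp reached 119.7 CPM or less in male control CVS mice and 97.7 CPM or less in male control NS mice, and the NS and CVS ranges of Htra1 overlapped in every stratum.

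The 3 calls depended on single libraries. Without 1 library at a time, 0 to 16 genes passed, and 0 passed in 18 of 38 runs, with 1391 to 1818 genes at an unadjusted p under 0.05. Those 18 runs left out male control NS replicate 5, male control CVS replicates 2, 3 or 5, male mutant NS replicate 1, male mutant CVS replicate 4, female control NS replicates 1, 2 or 5, female control CVS replicates 1, 3 or 5, female mutant NS replicates 2, 3 or 4, or female mutant CVS replicates 2, 3 or 4. The count was 1 without male control NS replicate 3 or female control NS replicate 3. It was 5 without male control CVS replicate 4 or male mutant NS replicates 2 or 3, and 6 without male control NS replicate 1 or female control CVS replicate 4. It was 8 without male mutant CVS replicate 3, 9 without female mutant CVS replicate 5, 12 without male control CVS replicate 1 and 16 without female mutant NS replicate 1. Dbp passed in 17, Colq in 18 and Htra1 in 15 of the 38 runs, and their log2 fold changes stayed between 0.32 and 0.37, between −0.77 and −0.59 and between −0.16 and −0.12. Without male mutant CVS replicate 1, the library with mixed genotype marks, 4 genes passed, and Dbp (0.36, adjusted p 0.0370), Colq (−0.74, 0.0370) and Htra1 (−0.14, 0.0378) were among them in edgeR's quasi-likelihood test (Benjamini-Hochberg adjusted).

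The share of the most abundant ID moved with stress, as given above. With that share as a covariate, on a log2 scale and centred within each stratum, 0 genes passed in edgeR (1626 at an unadjusted p under 0.05). Dbp (0.32), Colq (−0.65) and Htra1 (−0.13) then each had an edgeR Benjamini-Hochberg adjusted p of 0.121. The part of that share in these results was otherwise not tested. Removing that ID and the mitochondrial transcripts before normalization left 3 genes, again Dbp, Colq and Htra1. Without the 3 libraries high in Cdhr1, which leaves 1 male mutant NS library whose spread is assumed to be that of the other groups, 36 genes passed, and Dbp (0.41), Colq (−0.91) and Htra1 (−0.14) were among them.

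Just outside the threshold stood Dio2, the deiodinase with which astrocytes activate thyroid hormone. It ranged from 82.8 to 134 CPM (median 115) in NS and from 78.9 to 108 CPM (median 97.1) in CVS mice. In female controls the levels were 116, 116, 110.5, 104.7 and 134 CPM without and 78.9, 96.9, 102, 104.5 and 94.9 CPM with stress. The ranges there did not overlap, by a narrow gap of 104.7 against 104.5 CPM. In the other strata they overlapped, and all 20 CVS libraries lay below their stratum's NS mean. Its log2 fold change was −0.22 ± 0.0430, with stratum values of −0.28, −0.18, −0.28 and −0.13 in the order given above (edgeR, Benjamini-Hochberg adjusted p 0.0603; DESeq2 0.000487; limma voom 0.0366). Kifc2, a kinesin of neuronal dendrites, had 0.091 ± 0.0196, and Mapk7, the kinase ERK5 of the growth factor response, had 0.19 ± 0.0421, each with an edgeR Benjamini-Hochberg adjusted p of 0.0747. Both passed in the fit of females alone (log2 fold changes of 0.13 and 0.30, edgeR Benjamini-Hochberg adjusted p 0.0242). The libraries of that fit are also in the pooled fit by which these genes were chosen. In the fit of males alone Kifc2 had 0.046 and Mapk7 0.082, and neither passed. The ranges of both genes were separate in female controls and overlapped in the other strata. Mapk7 lay between 11.9 and 13.1 CPM in female control NS mice and between 14.6 and 17.4 CPM in female control CVS mice. Kifc2 lay between 602 and 646 CPM in the former and between 652 and 685 CPM in the latter.

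At an adjusted p under 0.10 there were 16 IDs, 4 higher and 12 lower. The others with a symbol that is not a predicted gene were named after their values were seen, as a description. Among secreted and matrix proteins these were Lox, the collagen cross-linking enzyme lysyl oxidase (−0.98 ± 0.217, from 1.05 to 0.539 CPM), and the growth factor Fgf10 (−0.31 ± 0.0730). Among membrane proteins they were Aqp4, the water channel of astrocyte endfeet (−0.19 ± 0.0414), Calhm2, a calcium homeostasis modulator channel protein (−0.31 ± 0.0676), and Atp1b3, a β subunit of the sodium pump (−0.095 ± 0.0208). Fam222a (−0.24 ± 0.0547) and Ubxn2b (−0.11 ± 0.0254) were lower, and Eml2, a microtubule-associated protein, was higher (0.13 ± 0.0297). Each had the same sign in all 4 strata, which choosing genes by the average of these strata favours. The values of Lox spread most, from −0.26 in female controls to −1.71 in female mutants, at a level near 1 CPM.

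**Figure D2:**
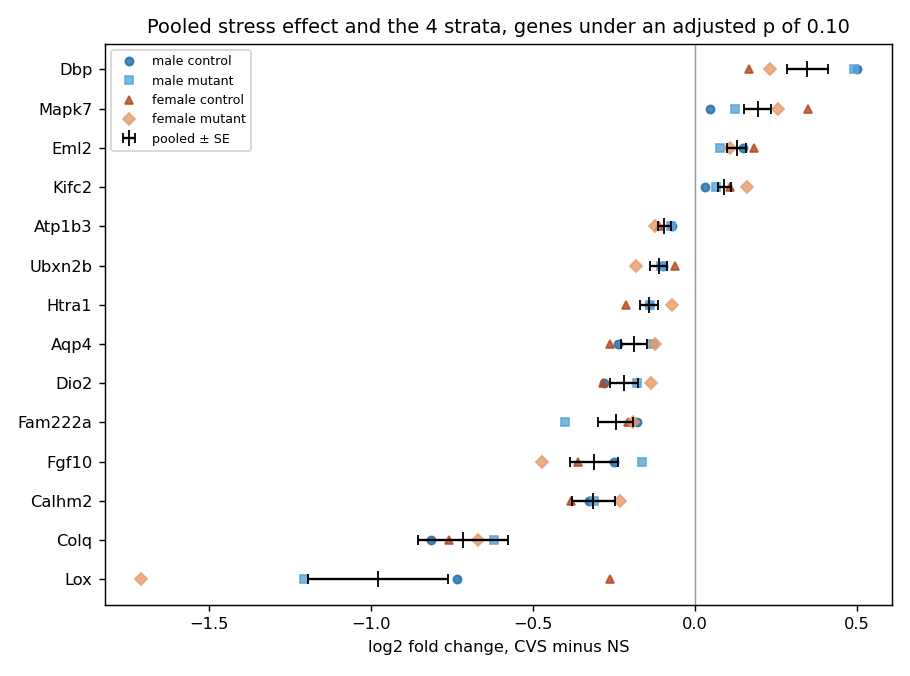
Log2 fold change CVS minus NS of the 14 named genes with an adjusted p under 0.10 (black: pooled value with its standard error; coloured symbols: the 4 strata). All 4 strata lie on the same side of 0 for each gene, which choosing genes by their average favours. Dbp is larger in both male strata (0.50 and 0.49) than in the female ones (0.17 and 0.23), and Lox spreads from −0.26 to −1.71.

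The circadian clock was the gene group with the largest share of members at an unadjusted p under 0.05 among the 40 lists described: 11 of 23 tested members, 9 higher and 2 lower, against 9.37% of all genes. Of these only Dbp passed the adjustment over all genes. Among the higher members were Ciart, a repressor of the clock (0.35 ± 0.0834), Bhlhe41, a repressor that competes for E-boxes (0.19 ± 0.0476), Nr1d1, the heme-sensing repressor REV-ERBα (0.18 ± 0.0526), the deubiquitinase Usp2 (0.12 ± 0.0314), Per3 (0.090 ± 0.0376), Nr1d2 (0.089 ± 0.0370), Tef (0.088 ± 0.0229), a relative of Dbp, and Cry2 (0.054 ± 0.0227). The lower ones were the activators Arntl (−0.12 ± 0.0497) and Clock (−0.075 ± 0.0244). Adjusted p-values of these 10 genes lay between 0.125 and 0.456 in edgeR's quasi-likelihood test (Benjamini-Hochberg adjusted). Repressors stood on both sides of 0, with Nfil3, which competes with Dbp at D-boxes, at −0.13 ± 0.0719, Bhlhe40 at −0.056 ± 0.0677, Cry1 at −0.020 ± 0.0375 and Per1 at 0.014 ± 0.0696, each above an unadjusted p of 0.05. The list's median was 0.020 with 13 members positive, against 0.0028 over all genes. The labels do not state the hour of dissection. A difference in that hour between NS and CVS mice therefore cannot be told apart from stress in these values, and it was not tested.

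The stratum values were larger in males for the leading members, and in females several were near or below 0. Of the 23 members 15 were negative in female controls, against 9 in male controls, 7 in male mutants and 7 in female mutants. The list medians were −0.020 in female controls, 0.048 in male controls, 0.10 in male mutants and 0.044 in female mutants. Nr1d2 had 0.28 and 0.20 in male controls and mutants, and −0.059 and −0.065 in female controls and mutants. Ciart ranged from 7.97 to 10.2 CPM in male control NS and from 9.71 to 18.9 CPM in male control CVS mice, and was 7.68, 9.38 and 5.99 CPM in male mutant NS against 10.8, 11.2, 11.6 and 9.999 CPM in male mutant CVS mice. In female controls it was 11.1, 12.1, 9.08, 11.7 and 10.1 CPM without and 9.81, 12.7, 9.68, 7.51 and 13.7 CPM with stress. The ranges were thus separate in male mutants and overlapped elsewhere, with stratum log2 fold changes of 0.63, 0.50, −0.020 and 0.27. Bhlhe41 had 0.24, 0.36, −0.0062 and 0.16 in the same order and was also separate in male mutants, with 25.2, 29.5 and 26.4 CPM against 34.7, 37.0, 35.5 and 31.8 CPM. Tef had 0.13, 0.13, 0.054 and 0.036, with overlapping ranges in all 4 strata (397 to 496 CPM in NS and 418 to 523 CPM in CVS mice). The difference between cohorts was −0.44 for Ciart and −0.22 for Bhlhe41. Neither passed the adjustment over all genes, where 0 genes differed between cohorts by edgeR's quasi-likelihood test.

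**Figure D3:**
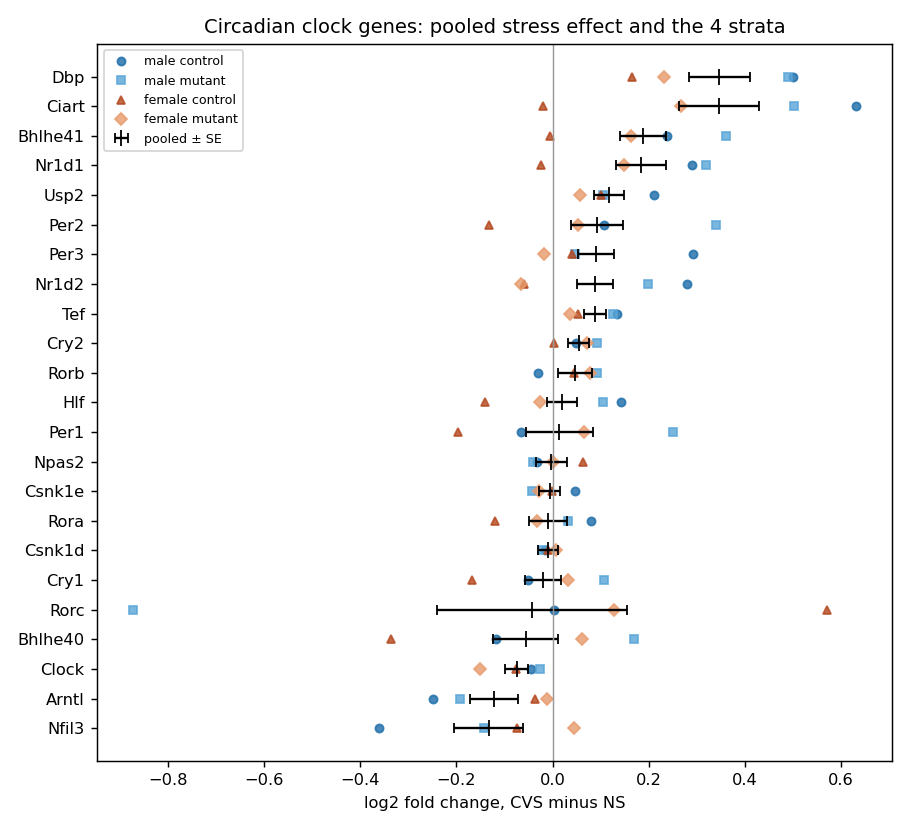
Log2 fold change CVS minus NS of the 23 tested circadian clock genes (black: pooled value with its standard error; coloured symbols: the 4 strata), ordered by the pooled value. Dbp, at 0.35, is the only member past the threshold, 13 members lie above 0 and 10 below, the lowest being Nfil3 (−0.13), Arntl (−0.12) and Clock (−0.075), and the female control symbols of Ciart and Bhlhe41 sit near 0 while the male ones do not.

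The promoters of Dbp and of the other 3 clock members with the smallest p-values that have an entry are shown because E-boxes are the binding sequences of Clock and Arntl. They are the 250 bases before the RefSeq start in GRCm38.p6, written on the strand of the gene, with the E-box CACGTG in capitals. GRCm38.p6 is another build than that of the counts.

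Dbp, chr7:45704997-45705246, plus strand: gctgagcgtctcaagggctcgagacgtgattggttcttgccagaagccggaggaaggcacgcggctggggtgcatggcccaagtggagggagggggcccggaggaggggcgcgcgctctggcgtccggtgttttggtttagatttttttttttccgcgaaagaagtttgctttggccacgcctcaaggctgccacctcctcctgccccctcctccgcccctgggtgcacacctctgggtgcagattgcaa

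Ciart, chr3:95882229-95882478, minus strand: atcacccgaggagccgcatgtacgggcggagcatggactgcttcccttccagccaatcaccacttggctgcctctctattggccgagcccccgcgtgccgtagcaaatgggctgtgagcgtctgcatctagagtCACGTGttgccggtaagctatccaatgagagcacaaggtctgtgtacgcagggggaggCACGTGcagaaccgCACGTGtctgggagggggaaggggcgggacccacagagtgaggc

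Bhlhe41, chr6:145865421-145865670, minus strand: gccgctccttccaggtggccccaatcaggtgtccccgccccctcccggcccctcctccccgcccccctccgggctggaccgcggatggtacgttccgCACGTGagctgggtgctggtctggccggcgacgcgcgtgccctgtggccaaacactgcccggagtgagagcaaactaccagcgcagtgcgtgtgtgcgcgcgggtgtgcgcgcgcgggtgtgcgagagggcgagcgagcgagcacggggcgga

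Tef, chr15:81811164-81811413, plus strand: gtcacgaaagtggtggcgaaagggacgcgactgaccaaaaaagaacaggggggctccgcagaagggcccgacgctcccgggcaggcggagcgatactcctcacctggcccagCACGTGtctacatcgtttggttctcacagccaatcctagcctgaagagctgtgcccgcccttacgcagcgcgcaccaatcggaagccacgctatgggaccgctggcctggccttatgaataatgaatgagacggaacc

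The Ciart window held 3 matches, the Bhlhe41 window 1 and each of the 2 Tef windows 1, and the Dbp window held none. CACGTG, which reads the same on both strands, was present in 6.02% of 32851 promoter windows of 250 bases and in 5 of the 19 clock genes with an entry. It was also in 4 of the 20 glucocorticoid-responsive genes with an entry. The first share counts windows, and the gene counts take a gene with any of its windows matching. The D-box TTATGTAA, the sequence bound by Dbp and Tef, was searched on both strands and found in 0.819% of windows and in 1 of the 19 clock genes, Per3. A match in a window is a sequence description, and no match says only that these letters are not in it.

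Among glucocorticoid-responsive genes, measured 24 hours after the last stressor, none of the 24 tested passed, 12 were positive and 12 negative, and their median was 0.000083. One, Ddit4, an inhibitor of mTORC1 signalling, had an unadjusted p under 0.05 (0.14 ± 0.0631), a share of 4.17% against 9.37% of all genes. Fkbp5, a co-chaperone that dampens the glucocorticoid receptor, lay between 20.9 and 43.5 CPM (median 31.0) in NS and between 22.7 and 52.4 CPM (median 29.3) in CVS mice. Its pooled log2 fold change was 0.049 ± 0.0696, made of 0.23, 0.14, 0.058 and −0.24 in the 4 strata in the same order. The kinase Sgk1 had 0.073 ± 0.0592, from 33.9 to 51.9 CPM (median 38.2) in NS and from 32.4 to 56.5 CPM (median 39.5) in CVS mice. Tsc22d3, the transcriptional regulator GILZ, had −0.025 ± 0.0740. The NS and CVS ranges of these 3 genes overlapped in every stratum, and in each gene the female mutants were the stratum with the lowest value. The receptor Nr3c1 itself had −0.032 ± 0.0290. The consensus glucocorticoid response element, searched on both strands, was in 0.387% of windows and in 3 of the 20 genes of this list with an entry (Map3k6, Mt1 and Sgk1).

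**Figure D4:**
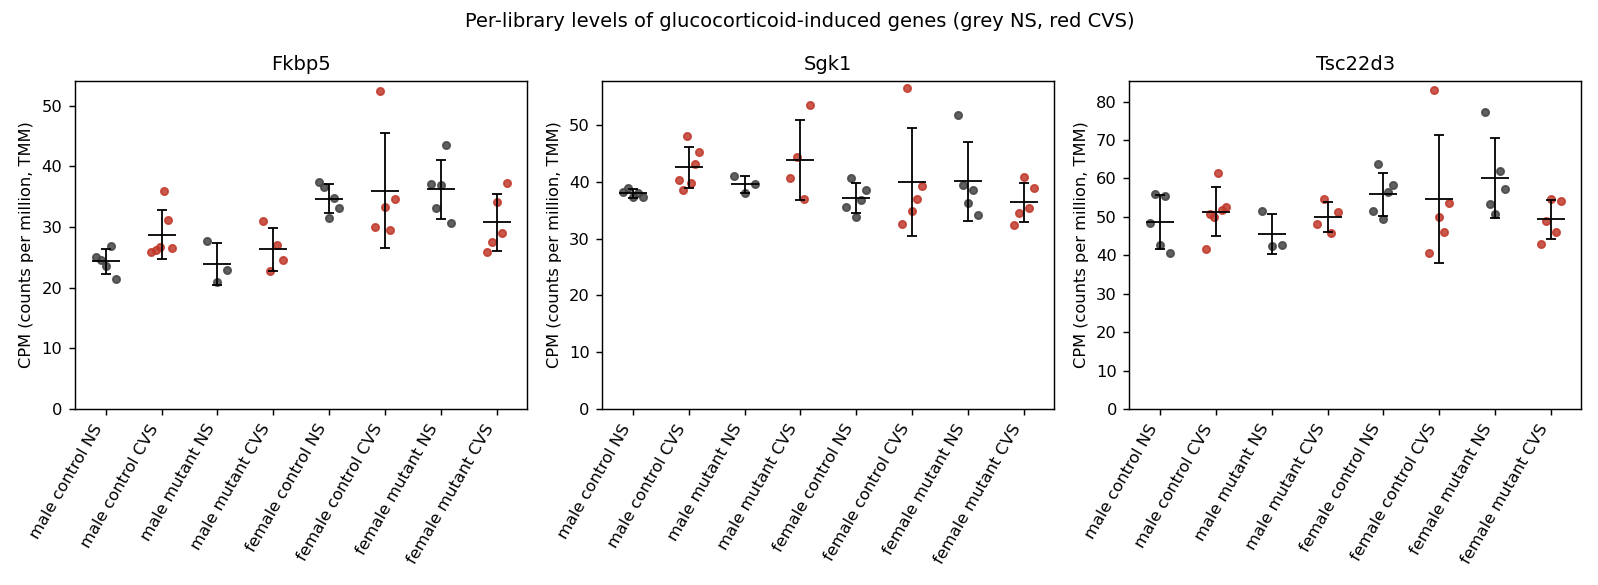
Levels of Fkbp5, Sgk1 and Tsc22d3 in each of the 38 libraries (y axis: CPM with TMM factors; x axis: the 8 groups; grey NS, red CVS; bars show the mean and SD). The groups overlap in every stratum, and female control CVS replicate 2 is the highest library for Fkbp5 (52.4 CPM), Sgk1 (56.5 CPM) and Tsc22d3 (83.1 CPM).

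Among 22 receptors and peptides of the HPA axis none passed, and 14 were negative (48.1% of all genes were). At an unadjusted p under 0.05 stood 4 of them (18.2%, against 9.37% of all genes), 2 higher and 2 lower. Npy, the neuropeptide of a set of cortical interneurons, had the smallest p (−0.15 ± 0.0365, from 68.3 to 61.6 CPM as means over the strata; edgeR, Benjamini-Hochberg adjusted p 0.125), followed by the dynorphin precursor Pdyn (0.13 ± 0.0429) and cortistatin, Cort (−0.30 ± 0.126). Sst, the peptide of the neurons targeted by the driver, had −0.010 ± 0.0337. Crh, the stress-axis releasing hormone that some cortical interneurons also make, had −0.058 ± 0.0861, an average of −0.32 and −0.29 in male and female controls and of 0.20 and 0.17 in male and female mutants. Its difference between genotypes was 0.49 ± 0.172 and did not pass (edgeR, Benjamini-Hochberg adjusted p 0.917). Of 15 markers of somatostatin interneurons 9 were negative, with a median of −0.017, and none passed. Npy, Pdyn and Cort are on this list as well. They were its 3 members at an unadjusted p under 0.05 (20%, against 9.37% of all genes).

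Immediate early genes, which report recent neuronal activity, were mostly lower but differed widely between strata and passed in no case. Of 31 tested members 24 were negative, with a median of −0.094, and 2 had an unadjusted p under 0.05 (6.45%, against 9.37% of all genes): Bdnf, the neurotrophin (−0.15 ± 0.0620), and the transcription factor Klf4 (−0.24 ± 0.118). The median was −0.37 in male controls, 0.0011 in male mutants, −0.16 in female controls and 0.15 in female mutants. Arc, a cytoskeletal activity marker, had −0.37 ± 0.214, Fos −0.14 ± 0.172 and Npas4 0.012 ± 0.151. The median was −0.13 without male mutant NS replicate 3 and −0.010 without male mutant NS replicate 2. Without the 3 libraries high in Cdhr1 together it was −0.0052, with 14 of 31 positive.

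Cytosolic heat shock genes lay lower in stressed mice. Of 24 tested chaperones 21 were negative (48.1% of all genes were), the median was −0.061, and 11 had an unadjusted p under 0.05, all lower (4.40% of all genes). None passed the adjustment. The smallest p-values belonged to Hspa4, a nucleotide exchange factor (−0.066 ± 0.0204), the co-chaperone Dnaja1 (−0.070 ± 0.0229), the constitutive HSC70 gene Hspa8 (−0.092 ± 0.0295) and the adaptor Stip1 (−0.083 ± 0.0285). The stratum medians were −0.088, −0.059, −0.037 and −0.019, and between −0.073 and −0.046 when single libraries were left out. Without the 3 libraries high in Cdhr1, 4 of 24 were positive. The unfolded protein response of the endoplasmic reticulum had 17 of 21 members negative, with a median of −0.028 and 3 members, Canx, Sel1l and Hsp90b1, at an unadjusted p under 0.05. The cold-inducible RNA-binding genes had 8 of 14 positive in the pooled comparison, made of 13 and 12 positive in male controls and mutants and of 12 and 10 negative in female controls and mutants. The stratum medians were 0.11, 0.059, −0.052 and −0.040, and this difference between the sexes was not tested. Cirbp, the highest member, had 0.18 ± 0.0562.

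Cytosolic ribosomal protein genes lay higher, by small amounts. Of 78 tested 74 were positive, with a median of 0.054, and 25 had an unadjusted p under 0.05, all higher (4.96% of all genes). None passed. Rpl11 (0.088 ± 0.0278), Rpl13 (0.072 ± 0.0233), Rps14 (0.11 ± 0.0338) and Rpl8 (0.066 ± 0.0235) had the smallest p-values. The direction was not shared by every stratum: the median was −0.044 in male controls, with 65 of 78 negative, against 0.061 in male mutants, 0.061 in female controls and 0.11 in female mutants. Nuclear-encoded oxidative phosphorylation genes had the same split, with 55 of 73 positive in the pooled comparison (median 0.018) and 61 of 73 negative in male controls. Of these, 6.85% had an unadjusted p under 0.05, below the share of all genes. With library totals alone 42 of 73 were positive (median 0.0031) and with 1 surrogate variable 43 (median 0.0056), and the median was 0.0061 without male mutant NS replicate 1 and 0.031 without male mutant NS replicate 2. Ribosomal protein genes have many near-identical copies, among which reads can be split.

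Markers of glial and vascular cells other than microglia were mostly negative (48.1% of all genes were), and none passed. At an unadjusted p under 0.05 stood 18.75% of astrocyte, 23.5% of precursor, 13.0% of myelin and 17.6% of endothelial members. The share of all genes was 9.37%. Among astrocyte markers 13 of 16 were negative (median −0.037), with Aqp4 followed by the gap junction protein Gja1 (−0.084 ± 0.0277) and S100b (−0.078 ± 0.0274). Among oligodendrocyte precursor markers 15 of 17 were negative (median −0.051), led by the receptor Gpr17 (−0.16 ± 0.0471, adjusted p 0.252 in edgeR's quasi-likelihood test (Benjamini-Hochberg adjusted)). Of myelin and mature oligodendrocyte genes 19 of 23 were negative (median −0.049). Of endothelial and pericyte markers 15 of 17 were (median −0.10; with 1 surrogate variable −0.055 and 5 positive), among them the blood-brain barrier lipid transporter Mfsd2a (−0.14 ± 0.0508) and the VEGF receptor Kdr (−0.24 ± 0.104). Microglial markers were near 0, with 11 of 18 positive, a median of 0.0058 and none at an unadjusted p under 0.05. The myelin median ranged from −0.074 to −0.014 when single libraries were left out. The astrocyte median was 0.050 in female mutants, with 11 of 16 positive, and negative in the other 3 strata. With 1 surrogate variable the astrocyte median was −0.023, with 6 of 16 positive. The precursor and myelin medians were then −0.041 and −0.066.

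Meningeal fibroblast and collagen genes had the lowest median of the 40 lists, −0.23 with 14 of 18 negative (48.1% of all genes were). Igfbp2 (−0.19 ± 0.0740), Bmp7 (−0.21 ± 0.101) and Col1a1 (−0.31 ± 0.152) had an unadjusted p under 0.05. They were 16.7% of the list, against 9.37% of all genes. The summed level of the list ranged from 158 to 309 CPM (median 233) in NS and from 158 to 323 CPM (median 201) in CVS mice, so the groups overlapped. By stratum the median was −0.14, 0.017, −0.085 and −0.45, and it was −0.047 with 1 surrogate variable in the fit. These fibroblasts line the brain surface and also express Lox, so their level stands beside its value; the part of the dissected meninges in that result was not tested. Of 22 extracellular matrix and perineuronal net genes 16 were negative (median −0.066). At an unadjusted p under 0.05 stood 4 of them (18.2%), 1 higher and 3 lower, again against 9.37% of all genes. The secreted glycoprotein Sparc was higher (0.12 ± 0.0293, adjusted p 0.108), whereas the perineuronal net components Tnr (−0.076 ± 0.0240) and Hapln1 (−0.11 ± 0.0373) were lower, none of them past the threshold in edgeR's quasi-likelihood test (Benjamini-Hochberg adjusted).

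**Figure D5:**
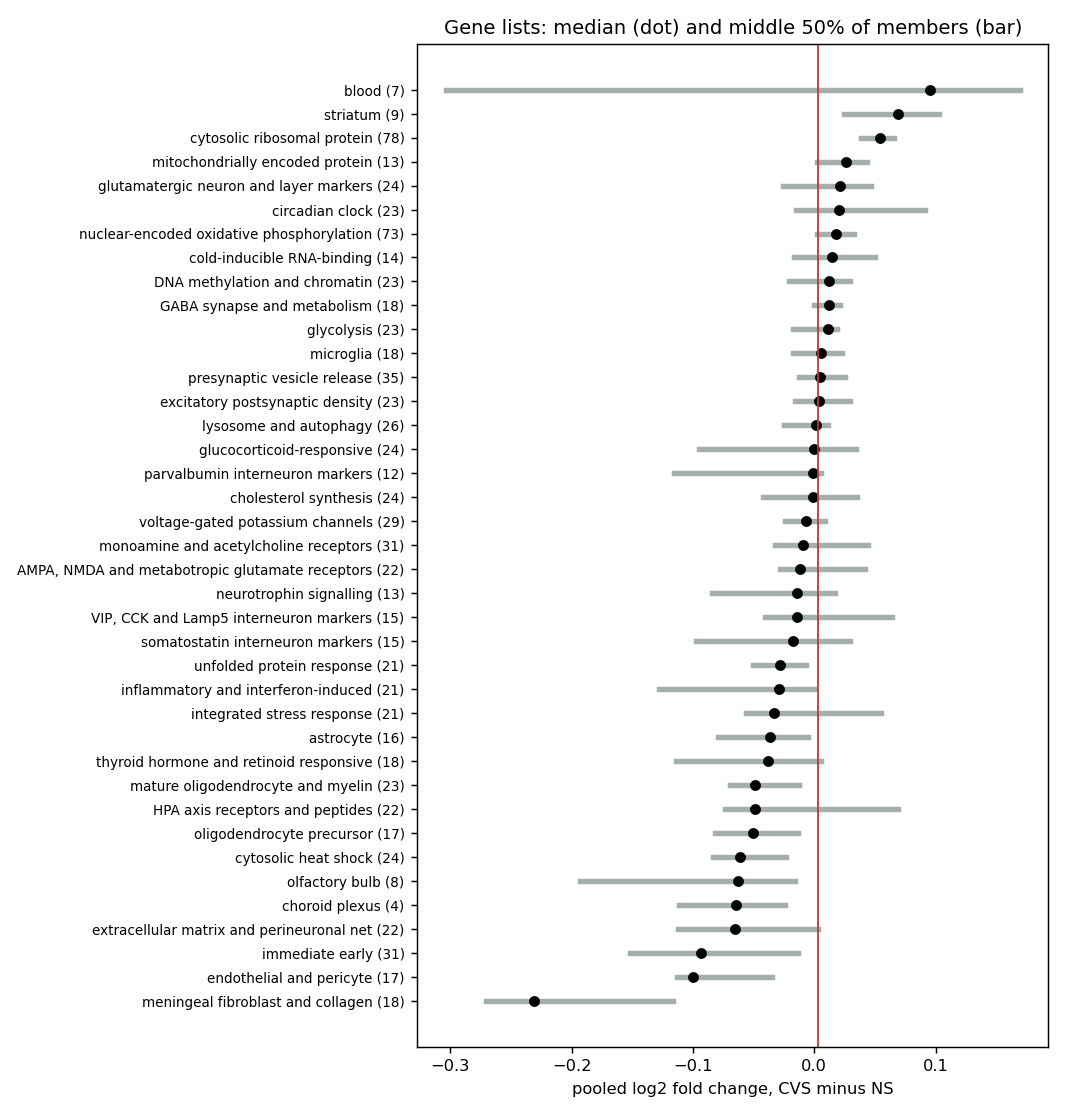
Median pooled log2 fold change (dot) and the middle 50% of members (bar) of 39 gene lists, with the number of tested members in brackets; the red line marks the median of all tested genes, 0.0028. Ribosomal protein genes lie to the right of it (0.054), and heat shock (−0.061), endothelial (−0.10) and meningeal fibroblast genes (−0.23) to the left.

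AMPA, NMDA and metabotropic glutamate receptors had 14 of 22 negative (median −0.011), against 48.1% of all genes. Of these receptors 5 (22.7%) had an unadjusted p under 0.05, 2 higher and 3 lower, against 9.37% of all genes. Excitatory postsynaptic density genes had 14 of 23 positive (median 0.0043) and presynaptic release genes 23 of 35 (median 0.0048), against 51.9% of all genes. At an unadjusted p under 0.05 stood 4.35% and 11.4% of them. Scaled by library totals alone, 10 of 23 and 12 of 35 of the latter 2 lists were positive. Among receptors for monoamines and acetylcholine the serotonin receptor Htr1b had −0.15 ± 0.0486, the adrenergic receptor Adra2a −0.15 ± 0.0574 and the ion channel Htr3a, which marks the VIP and related interneurons, 0.19 ± 0.0682. Further genes of those interneurons, Adarb2 (0.12 ± 0.0424) and Vip (0.085 ± 0.0347), were positive as well, although 8 of the 15 markers on that list were negative. In 39 of the 40 lists no member passed.

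The stress effect was not shown to differ between cohorts or genotypes. For the cohorts 0 genes passed by edgeR's quasi-likelihood test (1269, or 7.18%, at an unadjusted p under 0.05), 2 by DESeq2 and 0 by limma voom. Atp2a3, a calcium pump of the endoplasmic reticulum, had the smallest p among positive differences, females minus males (0.59 ± 0.133), with −0.34 and −0.48 in male controls and mutants and 0.16 and 0.21 in the female ones. Gsta4 followed (0.28 ± 0.0644), also negative in both male strata and positive in both female ones. Mthfd1l, a mitochondrial folate enzyme, had the smallest p among negative differences (−0.40 ± 0.0838; edgeR, Benjamini-Hochberg adjusted p 0.123), followed by Scai (−0.29 ± 0.0642), which was positive in both male strata and negative in both female ones. Mthfd1l had 0.33 in both male strata and −0.13 and −0.021 in female controls and mutants. For the genotypes 0 genes passed by edgeR, DESeq2 and limma voom (877, or 4.96%, at an unadjusted p under 0.05 in edgeR). The smallest p-values were those of Fjx1 (difference, mutants minus controls, 0.24 ± 0.0606), Rps26 (0.22 ± 0.0556), Map3k7 (−0.20 ± 0.0502) and Cdhr1 (−1.88 ± 0.508), each with an edgeR Benjamini-Hochberg adjusted p of 0.917. Cdhr1 stood high in the 3 male libraries named above.

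The averaged effect can also be set beside the sexes taken alone. The log2 fold changes of males alone and females alone, which share no library, had a Pearson r of 0.0256 and a Spearman rho of 0.0596 over 16333 genes, and 51.8% of genes had the same sign. Among the 806 genes at an unadjusted p under 0.05 in males the share was 58.1%, and among the 2051 in females 56.7%. Controls and mutants gave r = −0.0046 and rho = 0.0799 over 16640 genes, with 54.0% of the same sign, 63.4% among the 1512 genes at an unadjusted p under 0.05 in controls and 64.0% among the 970 in mutants. Genes are not independent replicates, and these values describe the libraries. In fits of one sex, 0 genes passed in males (839, or 4.87%, at an unadjusted p under 0.05 in edgeR) and 34 in females (0.207%), 24 of them higher.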

How the data were processed

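Bulk mPFC RNA was sequenced from 38 mice, 1 library each. The authors deposited 1 table of raw read counts per gene ID. Per the labels' protocols, mRNA from 400 ng of RNA went into directional libraries read as 150-bp pairs. Per the submitters' processing notes, fastp 0.23.2, STAR 2.7.10b and featureCounts were used with GRCm39. Strand setting and annotation release: not given in the sources used here. Overlapping and antisense genes may therefore share reads, and near-identical copies may split them.

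Of 57010 IDs, 22462 had 0 counts in every library and 52029 matched a symbol in the gene table of GRCm38. The tests were run on the counts with edgeR 4.0.16 (R 4.3.3; TMM, filterByExpr with a minimum count of 10, robust quasi-likelihood fit of 8 groups), and p-values were adjusted by Benjamini-Hochberg over all 17671 IDs. Standard errors were derived from each log2 fold change and its F statistic. Replicate pairs within groups (74) differed by more than sampling noise, with chi-square per degree of freedom from 3.67 to 16.6. The labels number animals, and p-values measure the spread between mice.

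Named genes were the 12 smallest p-values per direction past the threshold (3 where fewer passed), at most 4 genes per list with the smallest p, and a set of stress genes. That rule passes over predicted genes and unnamed IDs. The targeted gene and some list members that the rule includes are not reported here. Members and lists were chosen with earlier results of these data known. Alternatives used limma 3.58.1, DESeq2 1.42.0 and sva 3.50.0. The scripts were tested on simulated data. Figures were drawn with matplotlib 3.10.9 from the counts scaled to CPM. Promoter sequences are from RefSeq, GRCm38.p6.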

Additional observations from a re-analysis of the deposited data

Results flagged for a closer look

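In groups of 4 to 10 libraries, the highest or lowest library was set against the rest of its group for the genes and library measures given per library, and chance finds about 1 such library in 20 groups. Of 112 groups checked, 5 held a library far from the others. Female control CVS replicate 2 had 52.4 CPM of Fkbp5, against 29.6 to 34.6 CPM in the other 4 mice of its group. The same library had 56.5 CPM of Sgk1, against 32.6 to 39.2 CPM. Female mutant CVS replicate 4 had a total of 27.5 M counts, against 18.8 to 21.2 M. The most abundant ID took 0.406% of counts in male control CVS replicate 5, against 0.0548% to 0.0882% in the other 5 libraries. Haemoglobin transcripts took 0.0173% of counts in male control NS replicate 4, against 0.00843% to 0.0109%.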

How the results depend on the processing

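The count of 3 genes in the pooled comparison was 3 with DESeq2 size factors, 3 without the most abundant ID and mitochondrial transcripts, 3 by limma voom and 4 at a mean CPM of at least 1. It was 20 with library totals alone, 6 with no filter, 35 by DESeq2 (15 higher, 20 lower), 9 in an additive model, 1 with 1 surrogate variable, 0 in males alone, 34 in females alone, 1 in controls alone, 1 in mutants alone, 36 without the 3 libraries high in Cdhr1, 0 with the share of the most abundant ID as covariate and 16 at a threshold of 0.10. The last 2 were chosen after seeing the data. Fits of one sex or genotype hold fewer libraries, 18 in males and 20 in females. The cause of any of these shifts was not tested. Without single libraries the pooled count was 0 to 16 and the cohort difference 0 to 4 genes. The cohort difference was 6 genes with no filter and 2 by DESeq2, and the genotype difference was 0 by DESeq2, by limma voom, with DESeq2 size factors, with no filter and without each single library. Colq had no adjusted p in DESeq2, and Htra1 and Colq had 0.0528 by limma voom. With 1 surrogate variable Dbp, Colq and Htra1 had 0.0944 in edgeR with Benjamini-Hochberg adjustment.

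Of 1478 log2 fold changes of 87 named genes under the alternatives, 1362 kept direction and side of the threshold, 58 newly passed, 23 no longer passed and 35 changed sign. In males alone the sign changed for Tac1 (0.012), Tsc22d3 (0.10) and Npas4 (−0.28). In females alone it changed for S100b (0.0041), Fkbp5 (−0.089), Sgk1 (−0.011), Sst (0.020), Fos (0.11) and Per1 (−0.065). In controls alone it changed for Sult1a1 (0.047), Tsc22d3 (0.024), Sst (0.0014), Npas4 (−0.090) and Per1 (−0.13). In mutants alone it changed for Dusp6 (0.026), Tac1 (0.011), Fkbp5 (−0.050), Nr3c1 (0.015), Crh (0.19) and Fos (0.13). Without the libraries high in Cdhr1 it changed for Fkbp5 (−0.00076), Sst (0.0016) and Fos (0.064). Npas4 and Per1 had −0.0015 and −0.0011 with library totals alone, −0.033 and −0.0099 in the additive model and −0.066 and −0.036 with 1 surrogate variable, and Npas4 had −0.037 with the covariate.
Without single libraries Tsc22d3 ranged from −0.076 (without female control CVS replicate 2) to 0.00099 (without female mutant NS replicate 1), Sst from −0.024 to 0.0036 (without female control NS replicate 1), Fos from −0.22 to 0.073 (without male mutant NS replicate 2), Npas4 from −0.058 (without male mutant NS replicate 3) to 0.16 and Per1 from −0.029 (without male mutant NS replicate 1) to 0.076.
Of 306 list medians 304 moved by less than their spread; the glucocorticoid-responsive median was 0.084 in males alone and the HPA median 0.015 in mutants alone. No paired analysis was possible because the labels give animal numbers and no replicate numbers shared between groups. Depth limits the precision of Colq, at 12 to 67 counts per library, and of Lox, near 1 CPM.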
